A study of Rattus norvegicus with 29 samples.

Results

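The miRNAs described here are the plasma members of 3 families whose genes lie inside the Hox clusters, namely miR-10, miR-196 and miR-615. They were chosen by name from the rat small RNA count table: every row whose stem was miR-10a, miR-10b, miR-196a, miR-196b, miR-196c or miR-615 was taken, on either arm of the hairpin. The names matched 11 rows, and the 10 with the highest counts summed over all rats were kept, of 754 miRNAs in the table. The last row kept was miR-196b-3p, with 1818 summed counts, and the row left out was miR-196a-3p, with 917. Summed counts were the only measured value in the rule, and they are given as a description. The families themselves were picked with earlier results of these data known.

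The study asked whether plasma miRNA data were comparable between 3 laboratories that produced the same rat model of traumatic brain injury (TBI), at the University of Eastern Finland (UEF), Monash University and UCLA. Plasma came from tail vein blood of 29 adult male Sprague-Dawley rats under isoflurane, 48 h after surgery, with 1 library per rat. Injured rats received a severe lateral fluid-percussion injury, and sham controls were operated on in the same way but received no fluid pulse. By video-EEG in the seventh month, injured rats were divided into those without epilepsy (TBIN) and those with epilepsy (TBIE). UEF supplied 12 rats (4 sham, 4 TBIN and 4 TBIE), Monash 8 (3 sham, 3 TBIN and 2 TBIE) and UCLA 9 (3 of each). All groups shared the strain, sex, anaesthetic agent and time point. By the study's methods the care of the rats differed by site: the analgesic was flunixin at UCLA and buprenorphine elsewhere, UCLA rats also had antibiotic chow, UCLA used another anaesthesia system, and the vendors of the rats differed. The site stands for its animals, surgeons, blood sampling and plasma handling at once, and these cannot be told apart.

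Hox genes encode transcription factors that set position along the body axis, and the clusters also carry miRNA genes between or within the coding genes. Members of the miR-10 and miR-196 families are co-expressed with their Hox neighbours in the embryo, pair with Hox transcripts, and remain expressed in adult tissues of the trunk. A miRNA finds its targets mainly through its seed (bases 2 to 8), so members with the same seed are grouped together, and the arms of 1 hairpin (5p and 3p) usually differ greatly in abundance because only 1 of them is retained by the silencing complex.

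All 10 members were matched to mature sequences of RefSeq (build GRCr8), and they are shown because their shared and shifted seeds, and their single differing bases, decide how far the members can be told apart by counting. Each is written 5′ to 3′ in lower case with the seed in capitals, and the rat prefix rno is left off in the text that follows them.
rno-miR-10a-5p: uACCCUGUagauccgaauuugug
rno-miR-10b-5p: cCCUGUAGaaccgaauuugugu
rno-miR-196a-5p: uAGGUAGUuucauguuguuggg
rno-miR-196b-5p: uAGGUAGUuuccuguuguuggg
rno-miR-196c-5p: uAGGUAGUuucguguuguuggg
rno-miR-615: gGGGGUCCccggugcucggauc
rno-miR-10a-3p: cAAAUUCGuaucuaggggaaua
rno-miR-10b-3p: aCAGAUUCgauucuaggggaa
rno-miR-196b-3p: uCGACAGCacgacacugccuuca
rno-miR-196c-3p: aCAACAACaccaaaccaccuga

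The miR-196 5p arms shared 1 seed and matched each other at 21 of 22 bases. Counted from the 5′ end of miR-196a-5p, miR-196b-5p differed from it by A12C and miR-196c-5p by A12G. The listed miR-10b-5p started 2 bases further in than miR-10a-5p, and over the 21 bases that overlapped, 20 matched, with U12A counted from the 5′ end of miR-10a-5p. Their windows at bases 2 to 8 therefore read differently although the molecules were otherwise nearly the same. Because these pairs differ by 1 base, reads of one could have been counted for the other, and the split of reads within each pair is uncertain. The listed miR-615 sequence came from the 5′ side of its hairpin and was 77.3% G and C, the highest of the 10; the others ranged from 36.4% to 56.5%.

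In the RefSeq gene table of the same build, Mir10a lay between Hoxb5 and Hoxb4, and Mir10b within the span of Hoxd4. Mir196a lay between Hoxc10 and Hoxc9, Mir196b between Hoxa9 and Hoxa10, and Mir196c between Hoxb13 and Hoxb9. Mir615 lay within the spans of Hoxc6 and Hoxc5. Every one of the 4 Hox clusters was thus represented. No coordinates are given, since the deposited counts were made on an earlier build.

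The libraries held between 1162307 and 5223469 counts (median 2713557), and the 10 members made up 1.08% of all counts. Levels are given as CPM, counts scaled to a common library size, after TMM scaling, a method that corrects each library's total for a few very abundant miRNAs. Sham rat 3 of UEF stood apart, with the highest total and a TMM factor of 0.333, where the other 28 factors ranged from 0.644 to 1.76. miR-122-5p, the main hepatocyte miRNA, took 55.1% of the counts of that library. The 2 rows of the liver list summed to between 28.1% and 55.1% of counts in the sham rats of UEF, 1.58% to 22.7% in the injured rats of UEF, 2.04% to 13.0% in the rats of Monash and 0.636% to 2.68% in the rats of UCLA. The 4 rows of the red cell list (miR-451, miR-144, miR-486 and miR-16) summed to between 6.82% and 19.8% in the sham and 21.9% to 40.7% in the injured rats of UEF. At Monash they summed to between 19.7% and 34.2% in sham and 23.2% to 31.7% in injured rats, and at UCLA to between 27.7% and 37.1% in sham and 35.3% to 43.1% in injured rats. No row of either list was at 0 in any group. In edgeR 1 of 2 liver rows was called lower after injury and 2 of 2 higher at UEF than at UCLA. Of the 2 liver rows, 1 was called higher at UEF than at Monash and 1 higher at Monash than at UCLA. Among the red cell rows, 0 of 4 were called in any comparison. Of the 7 muscle rows, 4 were called higher at UEF than at UCLA, with miR-133a-3p/133b-3p at a log2 fold change of 4.19, and 3 higher at Monash than at UCLA. Of 7 brain rows 1 was called higher after injury, 1 lower at UEF than at Monash and 1 lower at UEF than at UCLA. Of 6 white cell and platelet rows 3 were called lower at UEF than at Monash and 1 lower at UEF than at UCLA. The part of these lists in the results was not tested. Models that carry miR-122-5p or the ratio of miR-451 to miR-23a-3p (the red cell ratio) as a term cannot decide it, because both terms moved with the groups compared. miR-122-5p averaged 19.7% of counts at UEF and 1.59% at UCLA. The log2 red cell ratio averaged -2.86 in sham and -2.15 in injured rats. In plasma, fewer cells releasing a miRNA and less of it released by each cell cannot be told apart.

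miR-10a-5p, the family's most abundant arm in plasma, ranked 20 of 754 by summed counts and ranged from 3607 to 32348 CPM (median 9844) over the 29 rats. Its lowest value was above the highest value of any other member. miR-10b-5p ranged from 105 to 1026 CPM (median 279) and miR-196b-5p from 74.3 to 518 CPM (median 196). miR-10b-3p (median 165 CPM) and miR-196a-5p (median 88.3 CPM) followed.

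The remaining members were near each other. miR-196c-3p had a median of 48.3 CPM, miR-196c-5p of 48.0 CPM and miR-10a-3p of 44.3 CPM. miR-615 ranged from 11.6 to 106 CPM (median 28.4) and miR-196b-3p from 8.5 to 89.1 CPM (median 21.9). Below miR-10a-5p, the ranges of neighbouring members in this order overlapped. The lowest count of any member in any rat was 18, so that each of the 10 passed the filter on low counts and was detected with at least 10 counts in 29 of 29 rats.

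**Figure D1:**
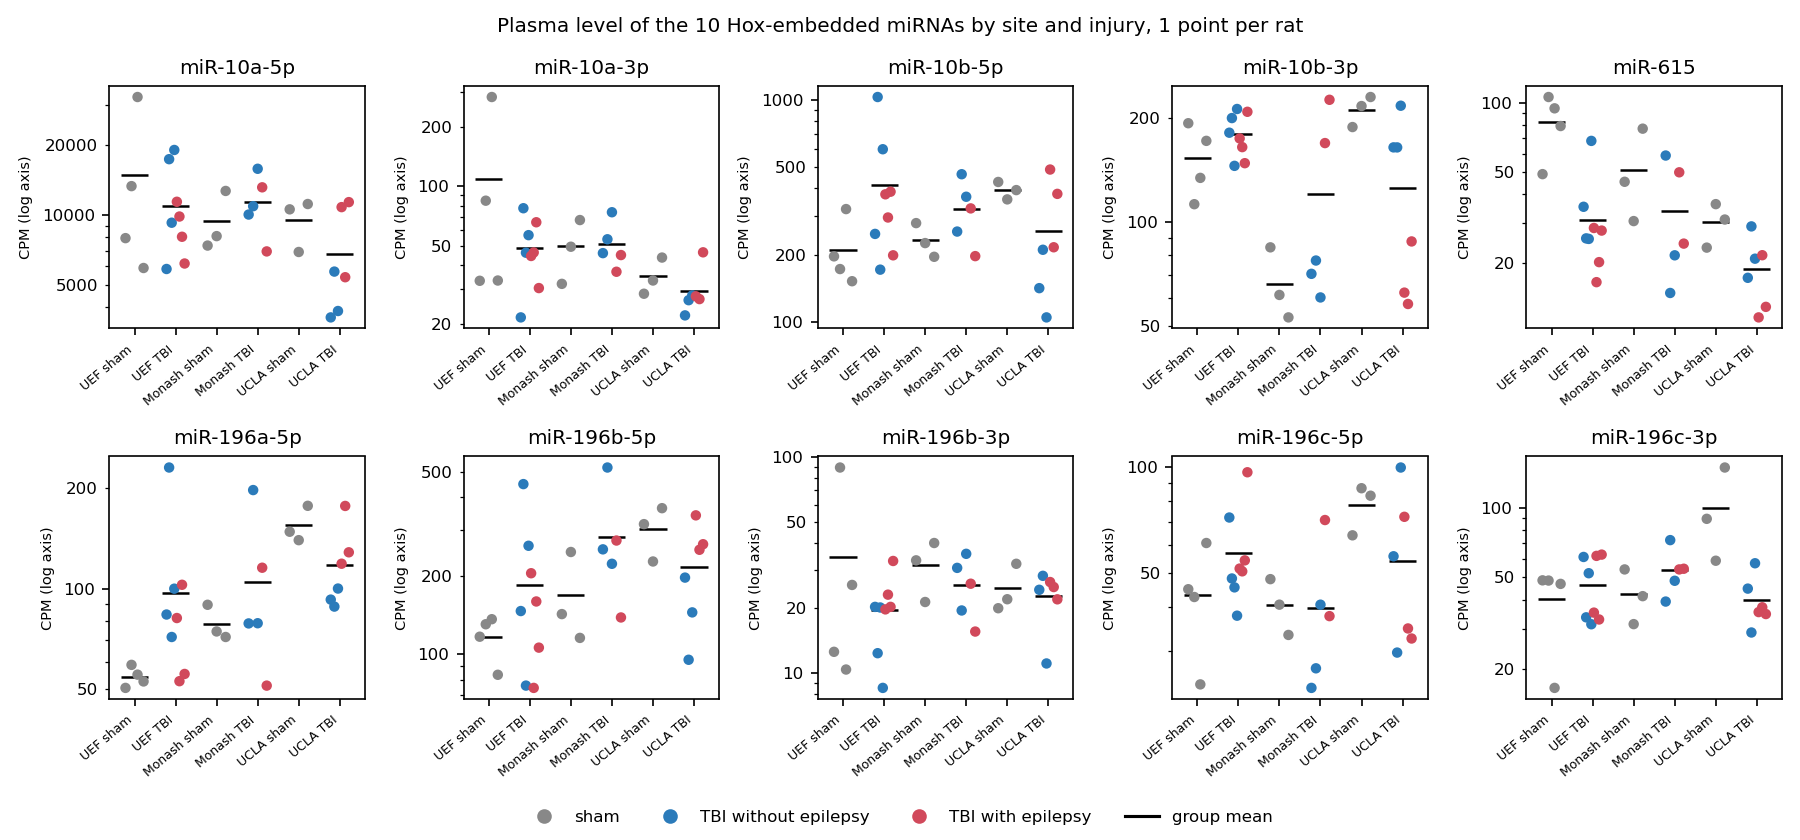
Level of each of the 10 miRNAs in plasma (CPM, log axis) by site and injury, with 1 point per rat and a black line at the group mean; grey is sham, blue TBI without epilepsy and red TBI with epilepsy. The mean of miR-615 was highest in the sham rats of UEF (82.3 CPM, from 48.9 to 106), and miR-10b-3p was at 52.9 to 84.4 CPM in the sham rats of Monash and 189 to 231 CPM in those of UCLA.

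Injury against sham was the first comparison, in 19 injured and 10 sham rats with the site in the model. miR-615 was lower after injury, and no other member passed the test. In the sham rats of UEF it measured 48.9, 106, 94.8 and 79.3 CPM. In those of Monash it measured 45.3, 30.5 and 77.2 CPM, and in those of UCLA 23.3, 36.1 and 31.0 CPM. The injured rats ranged from 11.6 to 68.3 CPM with a median of 24.3, and 9 of 19 lay below every sham rat while 4 of 10 sham rats lay above every injured rat, so that the groups overlapped.

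The mean of miR-615 was 27.9 ± 15.4 CPM after injury (SD, n = 19) and 57.3 ± 29.6 CPM in sham rats (SD, n = 10). The log2 fold change was -1.0 with an SE of 0.23 (95% interval -1.46 to -0.54), and the adjusted p was 0.0187 in edgeR's quasi-likelihood test with Benjamini-Hochberg adjustment over 751 miRNAs. It was 1 of 10 members called, where 1.2% of all miRNAs tested were called in this comparison and 0.533% were called lower after injury.

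The call for miR-615 was lost when some rats were left out or a marker miRNA entered the model. Without the UEF rats its log2 fold change was -0.66 (edgeR adjusted p = 0.939) and without the UCLA rats -1.04 (edgeR adjusted p = 0.0703). Scaled to miR-28-3p, the miRNA that the study used as the reference for its PCR measurements, it was -0.92 (edgeR adjusted p = 0.0763). Without sham rat 2, 3 or 4 of UEF it was -0.86, -0.92 and -0.97 (edgeR adjusted p = 0.0744, 0.0608 and 0.0516). With miR-122-5p in the model, an alternative chosen after the data were seen, it was -0.60 (edgeR adjusted p = 0.621), and it was -0.64 with the ratio of miR-451 to miR-23a-3p in the model (edgeR adjusted p = 0.532). Some of these fits called few miRNAs of any kind, with 0 of 745 without the UEF rats. With miR-122-5p it was 0 of 754, and with the red cell ratio 4 of 754. The main fit called 9 of 751, the fit without the UCLA rats 14 of 751 and that scaled to miR-28-3p 8 of 751. Over the 29 rats the level of miR-615 followed miR-122-5p with a Spearman correlation of 0.61 and miR-486 with one of -0.70, values that share library, depth and scaling.

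Of the 9 other members, none was called in either direction. The log2 fold changes were 0.29 for each of miR-10b-5p, miR-196a-5p and miR-196b-5p and 0.07 for miR-10b-3p. Those of the members with a negative sign were -0.57 for miR-10a-3p (95% interval -1.12 to -0.02, edgeR adjusted p = 0.413), -0.46 for miR-196b-3p, -0.28 for miR-196c-3p, -0.27 for miR-10a-5p and -0.02 for miR-196c-5p. The median over the 10 members was -0.15, against 0.03 over the 751 miRNAs tested. Single sham rats moved these values: without sham rat 3 of UEF they were -0.09 for miR-10a-3p and -0.0039 for miR-10a-5p, without sham rat 2 of UEF -0.02 for miR-196b-3p, and without sham rat 3 of UCLA -0.07 for miR-196c-3p. Without all UCLA rats miR-196c-3p was at 0.31.

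Within the sites, the injury difference was read from a model with 6 groups of site and injury. At UEF, 1 of 10 members was called, where 3.85% of all miRNAs were called, and it was again miR-615. It measured 35.2, 25.6, 25.5 and 68.3 CPM in the TBIN rats and 28.4, 16.5, 20.2 and 27.7 CPM in the TBIE rats of UEF, so that 7 of 8 injured rats lay below each of the 4 sham rats. Its log2 fold change at UEF was -1.41 (SE 0.34), and edgeR gave an adjusted p of 0.0122. Without sham rat 2 or 3 of UEF it was -1.14 and -1.28 (edgeR adjusted p = 0.123 and 0.10). It was -1.04 scaled to miR-28-3p, -0.96 with the red cell ratio in the model and -0.85 with miR-122-5p in the model (edgeR adjusted p = 0.149, 0.255 and 0.899). Not called at UEF were miR-10a-3p at -1.16, miR-196b-3p at -0.82, miR-196a-5p at 0.84 and miR-10b-5p at 0.97 (edgeR adjusted p = 0.0921, 0.311, 0.193 and 0.226). Under the alternative settings, miR-10a-3p passed the threshold in 1 of 10 and miR-10b-5p in 2 of 11. miR-196b-3p and miR-196a-5p passed it in 0 of 10 each. With single rats left out, miR-10a-3p ranged from -1.46 to -0.03 there, and its lowest edgeR adjusted p was 0.0196.

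At Monash 0 of 10 members were called by edgeR, where 0% of all miRNAs were called, with 1 at an unadjusted p under 0.05 (where 7.56% of all were). DESeq2 called 0 of 10 there, where it called 5 of all 751 miRNAs. miR-615 measured 58.9, 14.8 and 21.6 CPM in the TBIN rats and 49.8 and 24.3 CPM in the TBIE rats of Monash, a log2 fold change of -0.59 with an SE of 0.43. The injured and sham rats of Monash overlapped.

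At UCLA 0 of 10 members were called by edgeR, where 0.265% of all miRNAs were called, with 1 at an unadjusted p under 0.05 (where 11.3% of all were). DESeq2 called 1 of 10 there, where it called 7 of all 751 miRNAs. All 10 log2 fold changes at UCLA were negative, with a median of -0.51, while 47.7% of all 754 miRNAs were negative and their median was 0.02. The members are not independent of each other, and no test was made on their common sign. miR-615 measured 17.2, 28.9 and 20.9 CPM in the TBIN rats and 11.6, 21.6 and 12.9 CPM in the TBIE rats of UCLA, a log2 fold change of -0.68 with an SE of 0.41.

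The member behind the DESeq2 call at UCLA was miR-196c-3p, the arm of the hairpin without the shared miR-196 seed. It measured 89.5, 59.0 and 149 CPM in the sham rats of UCLA. The injured rats of UCLA measured 44.7, 28.9 and 57.5 CPM without epilepsy and 35.4, 37.1 and 34.7 CPM with epilepsy. All 6 injured rats lay below all 3 sham rats, a separation that 5.99% of the miRNAs tested showed at UCLA. No other member showed it there, and no member did at UEF, where 3.06% of miRNAs did, or at Monash, where 2.0% did.

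The log2 fold change of miR-196c-3p at UCLA was -1.32 with an SE of 0.32 (edgeR adjusted p = 0.0697; DESeq2 adjusted p = 0.0048). It was 0.20 at UEF and 0.35 at Monash. Without sham rat 3 of UCLA it was -0.90, and without sham rat 2 of UCLA -1.59 (edgeR adjusted p = 0.0148).

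The test of whether the injury difference itself varied between sites called 0 of 10 members by edgeR, where 1.06% of all miRNAs were called, with 3 at an unadjusted p under 0.05 (where 13.5% of all were). DESeq2 called 1 of 10, where it called 17 of all 751 miRNAs. The lowest edgeR adjusted p was that of miR-196c-3p, at 0.105, and its DESeq2 adjusted p was 0.0132. miR-10b-5p had log2 fold changes of 0.97 at UEF, 0.46 at Monash and -0.61 at UCLA (edgeR adjusted p = 0.355 for the difference between sites). This difference was called with miR-28-3p scaling and with at least 100 counts required in every rat (lowest edgeR adjusted p = 0.0157). miR-10b-3p had log2 fold changes of 0.23 at UEF, 0.86 at Monash and -0.75 at UCLA (edgeR adjusted p = 0.281). For miR-615 the sign was negative at each of the 3 sites, and the difference between sites had an edgeR adjusted p of 0.590.

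**Figure D2:**
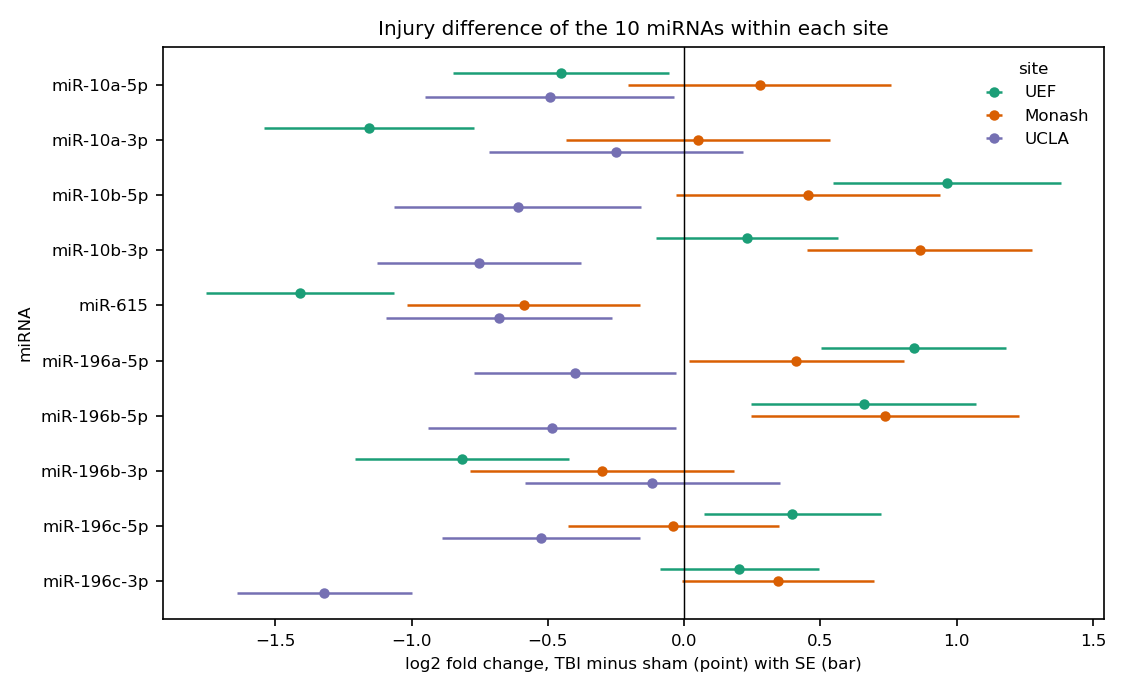
Injury difference (log2 fold change, TBI minus sham; bars are SE) of the 10 miRNAs at each site from the 6-group edgeR model. At UCLA all 10 points were below 0, from -1.32 for miR-196c-3p to -0.12 for miR-196b-3p, while at UEF 6 and at Monash 7 of the 10 were above 0.

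Between sites, the comparison of UEF with UCLA called 2 of 10 members, both higher at UEF, where 9.32% of all miRNAs were called and 5.19% were called higher at UEF. The members called were miR-615 and miR-10a-3p, the minor arm of the miR-10a hairpin. miR-615 averaged 48.0 ± 31.2 CPM at UEF (SD, n = 12) and 22.6 ± 8.24 CPM at UCLA (SD, n = 9). The log2 fold change, adjusted for condition, was 0.97 with an SE of 0.27 (edgeR adjusted p = 0.0194).

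miR-10a-3p measured 33.2, 84.6, 284 and 33.3 CPM in the sham rats of UEF and 28.5, 33.3 and 43.5 CPM in those of UCLA. Its injured rats ranged from 21.6 to 77.5 CPM at UEF (median 46.1) and from 22.1 to 46.3 CPM at UCLA (median 27.2). At UEF 11 of 12 rats lay above the median of UCLA, and 5 of 12 above every rat of UCLA. The log2 fold change was 1.04 with an SE of 0.32 (edgeR adjusted p = 0.0315), and without sham rat 3 of UEF it was 0.65 (edgeR adjusted p = 0.0513). The call was also lost without sham rat 1 or 2 or TBIN rat 2 or 3 of UCLA, with values from 0.94 to 1.03 (edgeR adjusted p from 0.0508 to 0.0657).

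Neither site difference remained past the threshold when miR-122-5p entered the model. The log2 fold changes between UEF and UCLA were then 0.11 for miR-615 (edgeR adjusted p = 0.946) and 0.03 for miR-10a-3p (edgeR adjusted p = 0.985). Of all miRNAs, 18 of 754 were called between these sites with the term, against 70 of 751 without it. In that model the site difference of miR-122-5p itself, a log2 fold change of 3.49 between UEF and UCLA, is held constant. Among injured rats alone, the values were 0.74 for miR-615 and 0.73 for miR-10a-3p, neither past the threshold (edgeR adjusted p = 0.268 and 0.101). The muscle rows called higher at UEF than at UCLA moved with the same contrast, and no model with a muscle miRNA as a term was run.

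None of the miR-196 5p arms passed the test between UEF and UCLA. miR-196a-5p, which shares its seed with miR-196b-5p and miR-196c-5p, measured 50.3, 59.0, 55.1 and 52.6 CPM in the sham rats of UEF. In the sham rats of UCLA it measured 148, 139.8 and 177 CPM, each more than any sham rat of the other sites. The lowest, median and highest injured rats were 52.7, 82.6 and 231 CPM at UEF and 88.3, 109 and 177 CPM at UCLA.

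Over all rats the log2 fold change of miR-196a-5p between UEF and UCLA was -0.75 with an SE of 0.25, and it missed the threshold (edgeR adjusted p = 0.0584). In sham rats alone it was -1.54 (edgeR adjusted p = 0.0076), and without TBIN rat 2 of UEF, the rat at 231 CPM, it was -0.92 (edgeR adjusted p = 0.0048). With single rats left out it ranged from -0.92 to -0.66, and the edgeR adjusted p from 0.0048 to 0.124. With miR-122-5p in the model it was 0.05 (edgeR adjusted p = 0.963). miR-196b-5p had a log2 fold change of -0.70 (edgeR adjusted p = 0.190) and miR-196c-5p of -0.26 (edgeR adjusted p = 0.628) in the same comparison.

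UEF against Monash called 0 of 10 members by edgeR, where 9.99% of all miRNAs were called, and 0 by DESeq2, where 109 of 751 were. At an unadjusted edgeR p under 0.05 was 1 member, where 27.2% of all were. That member was miR-10b-3p, higher at UEF by 0.78 on the log2 scale with an SE of 0.29 (edgeR adjusted p = 0.0767). Monash against UCLA also called 0 of 10 by edgeR, where 5.46% were called, and 0 by DESeq2, where 59 of 751 were. At an unadjusted edgeR p under 0.05 were 3 members, where 19.7% of all were. The 3 were miR-615 (log2 fold change 0.80), miR-196c-5p (-0.64) and miR-10b-3p (-0.65). The 3 site comparisons share their rats, and each value above comes from its own contrast.

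**Figure D3:**
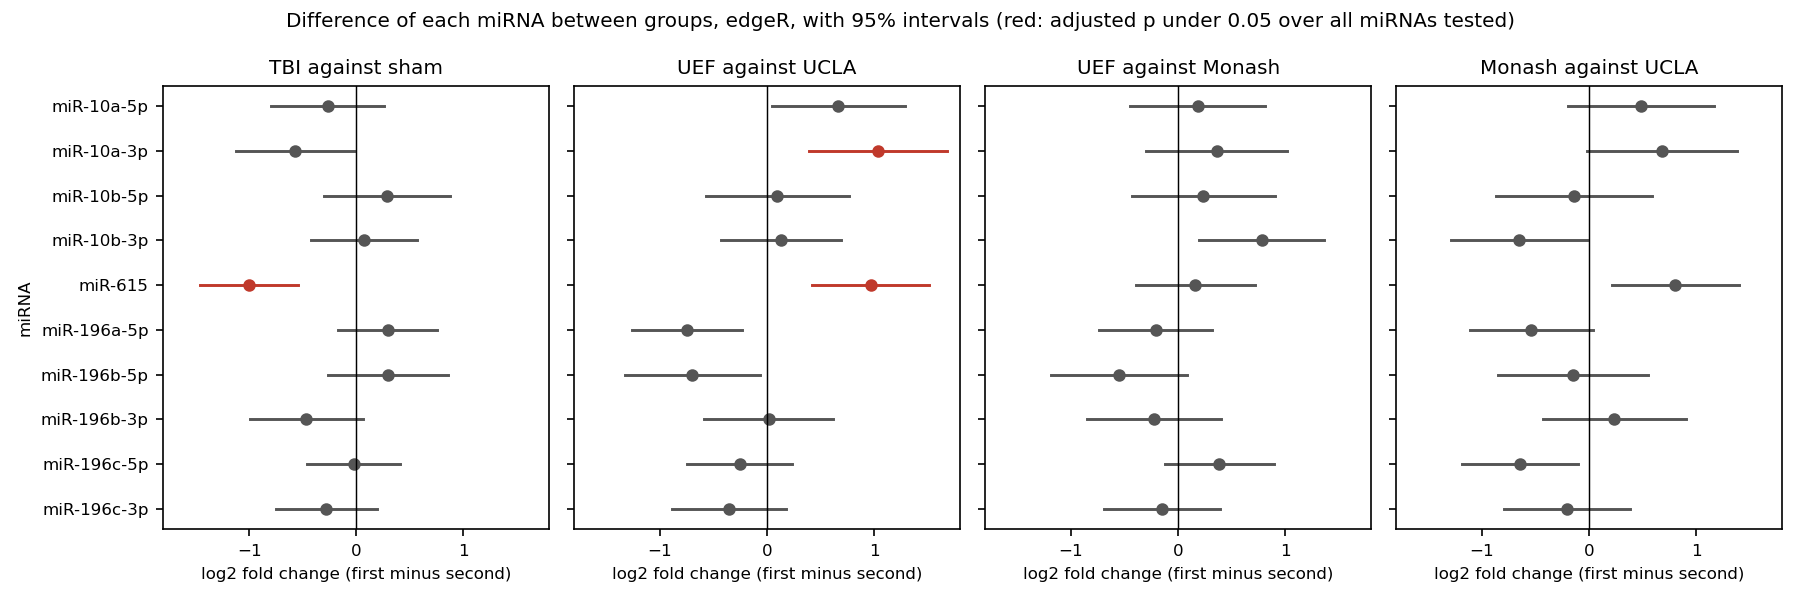
Log2 fold change of each of the 10 miRNAs (points) with its 95% interval (bars) in the injury comparison and the 3 site comparisons, from edgeR; red marks an adjusted p under 0.05. Red appears 3 times: miR-615 at -1.0 for injury, and miR-615 at 0.97 and miR-10a-3p at 1.04 for UEF against UCLA.

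Among injured rats, those with later epilepsy were compared with those without, 9 TBIE against 10 TBIN rats, with the site in the model. It called 0 of 10 members by edgeR, where 0% of all miRNAs were called, with 0 at an unadjusted p under 0.05 (where 2.4% of all were). DESeq2 called 0 of 10, where it called 0 of all 751 miRNAs. miR-615 averaged 23.7 ± 11.5 CPM in TBIE (SD, n = 9) and 31.7 ± 17.9 CPM in TBIN rats (SD, n = 10), a log2 fold change of -0.42 (95% interval -0.98 to 0.14, edgeR adjusted p = 0.998). The value of miR-10b-3p was 0.07.

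The small average for miR-10b-3p, the 3p arm of the Hoxd-embedded hairpin, joined opposite values at 2 sites. At Monash it measured 70.7, 77.3 and 60.4 CPM in the TBIN rats and 169.6 and 227 CPM in the TBIE rats. At UCLA it measured 165, 165 and 218 CPM in the TBIN rats and 62.4, 57.8 and 87.9 CPM in the TBIE rats. At UEF both groups lay together, at 182, 201, 146 and 213 CPM without and 175, 165, 148 and 209 CPM with epilepsy.

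The sham rats measured 84.4, 61.4 and 52.9 CPM at Monash, 189, 217 and 231 CPM at UCLA, and 194, 113, 134 and 172 CPM at UEF. Over the whole series, 9 rats lay at 87.9 CPM or below and 20 at 113 CPM or above, a step of 1.28 times. Among the other members the widest step with at least 3 rats on each side was 1.14 to 1.25 times. Steps that set fewer rats apart could be wider: miR-10a-3p went from 84.6 CPM to 284 CPM in sham rat 3 of UEF. The size of its step therefore did not set miR-10b-3p apart. Each of the 9 groups of site and condition fell on 1 side of the step of miR-10b-3p, with the sham and TBIN rats of Monash and the TBIE rats of UCLA on the lower side.

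A model with these 9 groups, chosen after the values of miR-10b-3p were seen, gave the test of the difference. The log2 fold change of TBIE against TBIN for miR-10b-3p was -0.09 at UEF, 1.51 at Monash with an SE of 0.31 and -1.40 at UCLA with an SE of 0.29. The difference between sites had an edgeR adjusted p of 7.01e-05 and was 1 of 10 members called, where 9.02% of all miRNAs were called. Since this model was chosen for the pattern it tests, and the share called is near the background, it is a description and no independent support. With any 1 of the 29 rats left out, the edgeR adjusted p ranged from 6.04e-05 to 0.00107, the highest without TBIE rat 2 of Monash. That fit leaves 1 TBIE rat at Monash, which is assumed to vary like the other groups. At Monash 8.22% and at UCLA 6.63% of all miRNAs were called between TBIE and TBIN rats in this model. At UEF 0% were called by edgeR, and 2.25% had an unadjusted p under 0.05. Monash and UCLA held 2 and 3 TBIE rats, and the labels give no extraction, library or sequencing batch, so that the site, the outcome group and any such batch cannot be told apart.

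The ratio of miR-10a-5p to miR-10b-5p, taken within each library and so not affected by the scaling, ranged from 17.0 to 100.3 with a median of 30.8. It was above 1 in all 29 rats. The ratios in the sham rats of UEF were 40.1, 76.8, 100.3 and 38.5. Those in the injured rats of UEF ranged from 17.0 to 53.7 with a median of 30.6, so that the groups overlapped through 1 injured rat. The log2 ratio was 4.84 ± 0.50 in injured (SD, n = 8) and 5.88 ± 0.69 in sham rats of UEF (SD, n = 4), a difference of -1.04 with a two-sided exact permutation p of 0.0283 and an adjusted p of 0.113 over the 8 comparisons of this ratio.

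The log2 ratio was 5.21 ± 0.44 at Monash (SD, n = 8) and 4.71 ± 0.26 at UCLA (SD, n = 9), a difference of 0.50 with an exact permutation p of 0.0109, adjusted 0.0869. Between all injured and all sham rats it differed by -0.42, with a permutation p of 0.0757, adjusted 0.151. At Monash the injury difference was -0.14 with an exact permutation p of 0.679, and at UCLA it was 0.19 with an exact permutation p of 0.357. The smallest p those designs allow is 0.0357 and 0.0238. None of the 8 comparisons passed the adjustment. Leaving out single rats moved the adjusted p below 0.05 between Monash and UCLA (without sham rat 1 or TBIN rat 2 of Monash or TBIN rat 3 of UCLA, adjusted exact permutation p = 0.0462, 0.0210 and 0.0373) and for injury at UEF (without TBIN rat 3 of UEF, the rat at 53.7, adjusted exact permutation p = 0.0434).

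The arms of each hairpin differed in balance. miR-10a-5p exceeded miR-10a-3p by a ratio of 114 to 388 (median 212), and miR-196b-5p exceeded miR-196b-3p by a ratio of 1.46 to 35.9 (median 9.23). The arms of miR-10b were closer, with a ratio of 5p to 3p from 0.483 to 7.76 (median 2.14), and in 5 of 29 rats the 3p arm had more counts. For miR-196c the median ratio was 1.03, from 0.372 to 2.03, and the 3p arm had more counts in 14 of 29 rats. These ratios compare sequences that may be captured unequally by the library chemistry, and their order within a rat is a statement on counts.

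**Figure D4:**
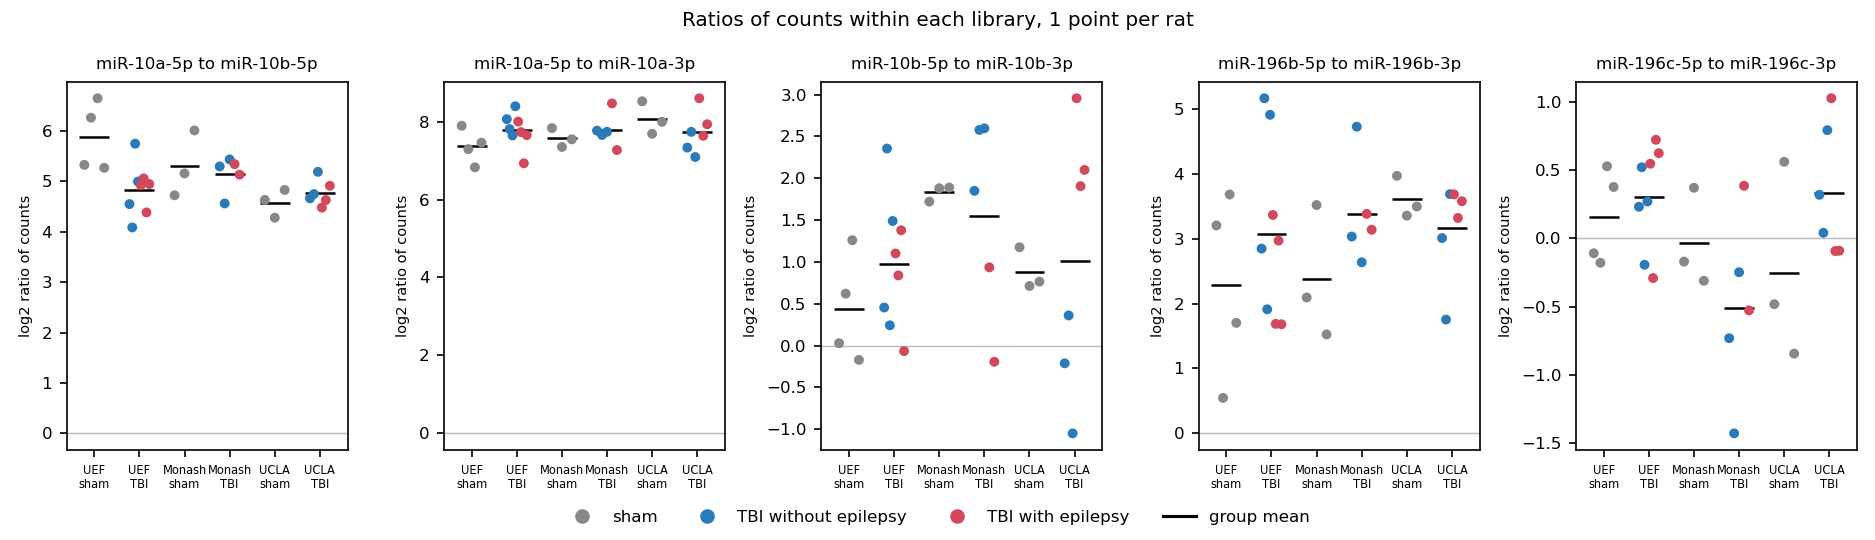
Log2 ratios of counts within each library by site and injury, with 1 point per rat and a black line at the group mean; the grey line marks equal counts. miR-10a-5p was above miR-10b-5p and miR-10a-3p in every rat, while the ratio of miR-196c-5p to miR-196c-3p lay around 0 on the log2 scale with a mean of 0.05.

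Across the 29 rats, the members did not vary as 1 group. The highest Spearman correlation of log2 CPM between members was that of miR-196a-5p with miR-196b-5p, at 0.82, followed by miR-10a-5p with miR-10a-3p at 0.78 and miR-10b-5p with miR-196b-5p at 0.74. miR-10b-5p with miR-10b-3p, which come from 1 hairpin, had a correlation of 0.03, and miR-196b-5p with miR-196b-3p one of -0.15. After removing the means of the groups of site and condition, the value was 0.73 for miR-196a-5p with miR-196b-5p and 0.75 for miR-10a-5p with miR-10b-5p. The points share library, depth and scaling, and near-identical sequences may share reads, so that the values are given as a description.

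By the same measure, the miRNA most like miR-10a-5p was miR-27b-3p (0.81), and the one most like miR-10b-5p was miR-100-5p (0.90), a member of the other branch of the miR-10 family. miR-10a-3p was most like miR-130a-3p (0.81). miR-10b-3p was most like miR-488-5p (0.83), miR-665 (0.82) and miR-363-5p (0.81), and miR-196c-5p was also most like miR-363-5p (0.74). After removing the means of the groups of site and condition, the values for miR-10b-3p were 0.52, 0.67 and 0.52. That of miR-196c-5p with miR-363-5p was then 0.54, and that of miR-10b-5p with miR-100-5p was 0.89. miR-615 was most like miR-23a-5p (0.71), miR-196c-3p most like miR-3580-5p (0.72) and miR-196b-3p most like miR-101a-5p (0.70).

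**Figure D5:**
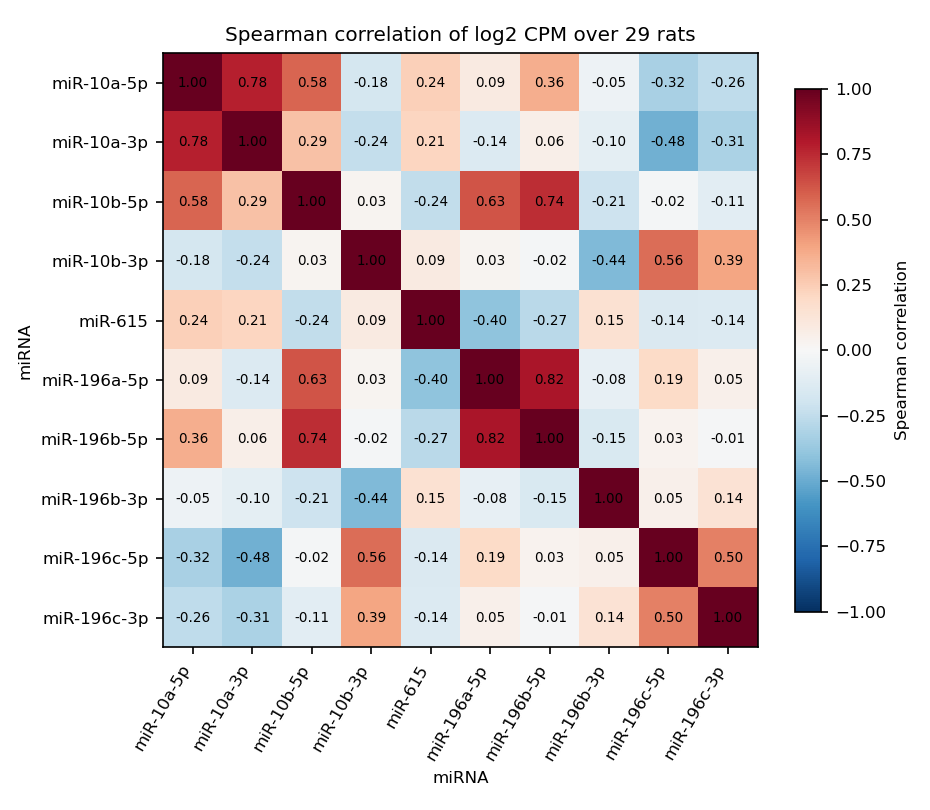
Spearman correlation of log2 CPM over the 29 rats for every pair of the 10 miRNAs, from blue (negative) to red (positive), with the value in each cell. The highest value off the diagonal was 0.82 for miR-196a-5p with miR-196b-5p, and the lowest was -0.48 for miR-10a-3p with miR-196c-5p.

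The other branch of the miR-10 family, miR-99a, miR-99b and miR-100, held 6 rows, of which 5 passed the filter. None was called in the injury, outcome or site comparisons by edgeR, with 1 at an unadjusted p under 0.05 between UEF and Monash. miR-99a-5p had the highest level, at a median of 1058 CPM. Its log2 fold change was -0.31 for injury (edgeR adjusted p = 0.741) and 0.74 between UEF and Monash (edgeR adjusted p = 0.108). The median log2 fold change of the 5 rows for injury was -0.03, against 0.03 over all miRNAs tested.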

How the data were processed

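Small RNA was measured in plasma of 29 rats, 1 library each, made with the QIASeq miRNA kit. The deposited values were raw counts per mature miRNA, made by the authors from reads trimmed with cutadapt and aligned with Bowtie to Rnor_6.0 and miRBase v21, as named in the submitters' processing notes and the study's methods. By the study's methods, molecular identifiers were identified in the reads, and reads whose identifier was too short were discarded. Whether reads were merged by molecular identifier is not given in the sources used here. If they were not, counts are reads and not molecules. 7 rows carried several miRNA names, and 0 columns could not be mapped to a sample.

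Members and lists were chosen with earlier results of these data known. Every member was named, with the family relatives, the marker miRNAs and, for each member, the 3 miRNAs with the highest Spearman correlation. The groups came from the labels, and a replicate is a rat.

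Counts were filtered with filterByExpr (minimum count 10), scaled by TMM and tested with the quasi-likelihood test of edgeR 4.0.16 (limma 3.58.1, R 4.3.3), with site and condition in the model and Benjamini-Hochberg adjustment at a threshold of 0.05. Injury within sites used 6 groups of site and injury. CPM in log2 used a prior count of 2, and ratios a pseudocount of 0.5 counts. Ratios were tested by two-sided permutation, exact where at least 1 of the groups had under 10 rats and with 100000 resamples otherwise. DESeq2 1.42.0, other scalings and filters, thinning, the red cell ratio as a term, the replicate block and leaving out rats or sites were the alternatives. The models with miR-122-5p, the table without it and the 9-group model were added after the data were seen. Python 3.11.15, pandas 2.3.3, numpy 2.4.6, scipy 1.17.1 and matplotlib 3.10.9 were used.

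On simulated counts with 200 of 751 miRNAs changed 2-fold, 81% were recovered for injury against sham, 76.5% for UEF against Monash, 76% for UEF against UCLA, 53.5% for Monash against UCLA and 67.5% for TBIE against TBIN. No pair of libraries of a group differed by as little as sampling noise.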

Additional observations from a re-analysis of the deposited data

Results flagged for a closer look

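The levels of 8 of 110 groups of 4 to 10 rats held a rat far from the others, where chance alone flags about 1 in 20 groups. Sham rat 3 of UEF had 32348 CPM of miR-10a-5p, with the next sham rat at 13324. The same rat had 284 CPM of miR-10a-3p, with the next at 84.6, and 16.7 CPM of miR-196c-3p, with the nearest sham rat of UEF at 46.8. These values came from 56317, 495 and 29 counts. Its TMM factor was 0.333, and miR-122-5p took 55.1% of its counts.

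TBIN rat 2 of UEF had 231 CPM of miR-196a-5p, with the nearest injured rat of UEF at 103. TBIE rat 4 of UEF had 96.6 CPM of miR-196c-5p, with the nearest TBIE rat of UEF at 54.3. TBIE rat 3 of UCLA had 46.3 CPM of miR-10a-3p, with the nearest injured rat of UCLA at 28.0. TBIN rat 3 of UCLA had 11.0 CPM of miR-196b-3p, from 28 counts, apart from the other injured rats of UCLA (nearest 21.9) and from all rats of UCLA (nearest 19.9).

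The difference between TBIE and TBIN rats varied between sites for miR-10b-3p (edgeR adjusted p = 7.01e-05), with log2 fold changes of 1.51 at Monash and -1.40 at UCLA. The model was chosen after these values were seen, so its p restates the pattern that prompted it, and 1 of 10 members was called where 9.02% of all miRNAs were. Of the 3 miRNAs most like it over all rats, miR-665 ranged from 8.05 to 10.8 CPM in TBIN and from 18.9 to 23.4 CPM in TBIE rats of Monash. At UCLA miR-665 ranged from 25.2 to 29.9 CPM in TBIN and from 7.05 to 12.9 CPM in TBIE rats. At Monash miR-488-5p ranged from 29.3 to 39.5 CPM in TBIN and from 79.3 to 121 CPM in TBIE rats, and at UCLA from 69.99 to 103 CPM and from 35.7 to 64.3 CPM. miR-363-5p ranged from 35.1 to 65.1 CPM in TBIN and from 107 to 116 CPM in TBIE rats of Monash, but at UCLA its TBIN rats (78.1 to 127 CPM) overlapped its TBIE rats (76.6 to 89.4 CPM). Since these miRNAs were picked for their likeness to miR-10b-3p, this is a description.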

How the results depend on the processing

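The count of members called between injured and sham rats, 1, became 0 with miR-28-3p scaling, with at least 100 counts required in every rat (which removes miR-615 from the test), with the red cell ratio or miR-122-5p in the model, and without the UEF or the UCLA rats. It ranged from 0 to 1 with single rats left out. The count of 2 for UEF against UCLA ranged from 0 to 3 over 14 alternative settings, so that it moved in both directions. It became 1 with miR-28-3p scaling, 0 in TBI rats alone and 0 with miR-122-5p in the model. With single rats left out it ranged from 1 to 4 (4 without TBIN rat 2 of UEF). The count of 0 for Monash against UCLA became 1 in sham rats alone. That for injury by site became 1 with miR-28-3p scaling, with at least 100 counts and with DESeq2. With miR-28-3p scaling and with at least 100 counts the member was miR-10b-5p, and with DESeq2 it was miR-196c-3p. With single rats left out, the count was 0 to 1 for UEF against Monash (1 without either TBIE rat of Monash) and for Monash against UCLA (1 without TBIN rat 2 of Monash), and 0 to 0 for injury by site and for TBIE against TBIN. The log2 ratio of miR-10a-5p to miR-10b-5p then differed by 0.39 to 0.59 between Monash and UCLA and by -1.24 to -0.78 for injury at UEF.

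Replicate numbers did not pair the rats: the correlation of deviations averaged -0.02 over 103 same-numbered pairs, and 3 of 29 rats correlated best with their own number. With the replicate block, 1 member was called for injury and 1 for UEF against UCLA. Over all miRNAs the block called 4 for injury, 31 for UEF against Monash, 46 for UEF against UCLA and 0 for injury by site, in place of 9, 75, 70 and 8. DESeq2 called 25 for injury, 17 for injury by site, and 51, 5 and 7 for injury at UEF, Monash and UCLA, in place of 9, 8, 29, 0 and 2. With miR-122-5p in the model, 0 were called for injury, 36 for UEF against Monash, 18 for UEF against UCLA and 0 for injury at UEF. The causes were not tested.

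For single members, 32 values passed the threshold under an alternative only and 25 in the main test only. No value past the threshold in either changed sign, while 133 of 3367 values past it in neither did. miR-196b-3p, with as few as 18 counts in a rat, and miR-615 had the lowest depth.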
